A study of Mus musculus with 8 samples.

Results

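The 8 genes described here encode the collagen chains that fibroblasts build into fibrils and into the microfibrils around cells: Col1a1 and Col1a2 (type I), Col3a1 (type III), Col5a1 and Col5a2 (type V), and Col6a1, Col6a2 and Col6a3 (type VI). They were taken by name from the gene tables, in which all 8 were present, out of 20388 gene identifiers kept and 11867 genes tested. The samples are mouse embryonic stem cells with floxed Htatsf1 alleles and CreERT2, a Cre recombinase that tamoxifen activates, and their polyadenylated RNA was sequenced. The 4 groups had 2 libraries each: ethanol for 48 h, tamoxifen for 48 h, ethanol for 72 h and tamoxifen for 72 h. All groups carried the floxed gene and CreERT2 and were grown on mouse embryonic fibroblasts (MEFs), so every library can hold fibroblast RNA. Only the tamoxifen groups met the drug, so that effects of tamoxifen itself and of the deletion cannot be told apart. The promoter that drives CreERT2, the number of stem cell lines and the genotype of the feeder fibroblasts are not given in the sources used here. HTATSF1 is an RNA-binding protein of the spliceosome's U2 particle, and the study asked what changes without it.

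Collagens are secreted proteins in which chains with glycine at regular steps wind into a triple helix. Type I collagen joins alpha 1 and alpha 2 chains into the main fibrils of connective tissue, type III forms thinner fibrils of homotrimers, and type V lies within type I fibrils and helps to start them. Type VI collagen assembles alpha 1, alpha 2 and alpha 3 chains into beaded microfibrils near cell surfaces. The chains are modified and folded in the endoplasmic reticulum, trimmed outside the cell and crosslinked by lysyl oxidases. Fibroblasts are a major source of all of these chains.

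The targeted gene stood at 21.7 to 23.0 FPKM in the 4 ethanol libraries and at 3.78 to 4.63 FPKM in the 4 tamoxifen libraries, without overlap. FPKM is the authors' value of fragments per kilobase of transcript, scaled to the mapped fragments of the library, so that it can be compared between genes. Depth was implied by the intervals around the FPKM values and summed to between 8985110 and 16845703 fragments per library. The collagen genes rested on between 224 implied fragments (Col3a1) and 10692 (Col1a1) in a library. Markers of pluripotent cells were high: the 15 genes of that list summed to between 3536 and 4710 FPKM. Libraries of a group correlated at 0.995 to 0.997 over all genes tested on the scale of log2(FPKM + 1). The log2 changes below were computed on this scale unless stated otherwise. Ratios of FPKM were taken without the added 1. The labels do not say that the 2 libraries of a group are separate cultures. The p-values therefore reflect library-to-library spread, possibly only technical.

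Type I collagen was the most abundant of these collagens per length in every group, and type III the least. In ethanol at 48 h the mean levels were 51.5 ± 2.11 FPKM for Col1a1 and 29.0 ± 0.68 for Col1a2 (SD, n = 2 each, as for all levels below). Col5a1 followed at 10.4 ± 0.47 FPKM, then Col5a2 at 8.71 ± 0.40 FPKM and Col6a1 at 7.63 ± 0.25 FPKM. Col6a2 at 5.19 ± 0.47 FPKM, Col6a3 at 4.03 ± 0.00 FPKM and Col3a1 at 3.37 ± 0.33 FPKM were lowest. In that group each gene's libraries lay above those of the next gene in the order. Among the other groups the libraries of neighbours in the order overlapped for Col6a1 and Col5a2 in tamoxifen at 48 h, Col5a2 and Col6a2 in ethanol at 72 h, and Col6a2 and Col6a3 in tamoxifen at 72 h. Among all genes tested, Col1a1 in ethanol at 48 h stood above 87.6% and Col3a1 above 25.5%.

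The type I genes made up 67.0% to 70.8% of the summed FPKM of the 8 collagens in any library. The summed level was 123 and 117 FPKM in the libraries of ethanol at 48 h, 188 and 185 in tamoxifen at 48 h, 120 and 125 in ethanol at 72 h, and 271 and 288 in tamoxifen at 72 h. The tamoxifen libraries lay above the ethanol libraries at both times, and the ratio of group means was 1.56 at 48 h and 2.28 at 72 h.

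**Figure D1:**
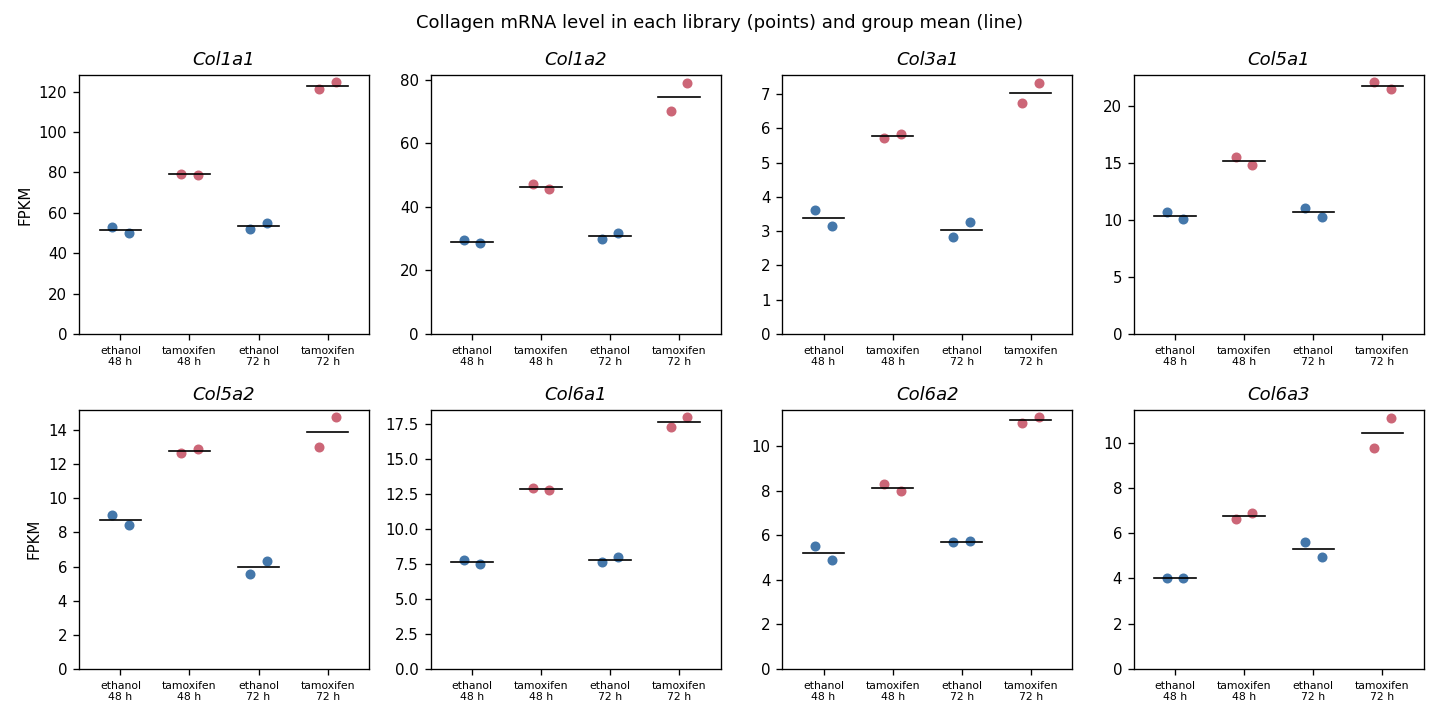
FPKM of each collagen gene (vertical axes, each from 0) in the 4 groups, with a point for each library and a line at the group mean of 2 libraries. In all 8 panels both tamoxifen libraries lie above both ethanol libraries of the same time.

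The genes lie on 5 chromosomes in the mm9 positions of the files: Col3a1 (45368383 to 45406551), Col5a2 (45431176 to 45560127) and Col6a3 (92663435 to 92740548) on chromosome 1, Col5a1 (27741945 to 27895030) on chromosome 2, Col1a2 (4455697 to 4491543) on chromosome 6, Col6a2 (76058501 to 76086149) and Col6a1 (76171537 to 76188789) on chromosome 10, and Col1a1 (94797584 to 94813170) on chromosome 11. Col3a1 and Col5a2 are neighbours 24.6 kb apart and Col6a2 and Col6a1 neighbours 85.4 kb apart, with 0 other genes of the files between them. RefSeq's table of start sites on GRCm38.p6 matched 6 of the 8 genes with 7 windows. Col1a1 and Col5a2 had no entry. The 250 bases before the start are shown for 1 gene each of type I, III and VI, since these 3 genes rose together and their upstream sequences differ in composition. Capitals mark any match, on either strand, to 4 motifs: the TATA box as TATAAA, the CCAAT box as CCAAT, the GC box as GGGCGG, and the AP-1 site as TGANTCA. No matches overlap in the windows shown.
Col1a2, chr6:4505368-4505617, plus strand: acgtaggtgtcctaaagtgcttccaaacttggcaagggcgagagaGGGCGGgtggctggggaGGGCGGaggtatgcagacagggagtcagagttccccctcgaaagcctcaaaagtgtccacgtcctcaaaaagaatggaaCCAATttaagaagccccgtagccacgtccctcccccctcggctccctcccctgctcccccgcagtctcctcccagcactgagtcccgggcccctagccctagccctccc
Col3a1, chr1:45311288-45311537, plus strand: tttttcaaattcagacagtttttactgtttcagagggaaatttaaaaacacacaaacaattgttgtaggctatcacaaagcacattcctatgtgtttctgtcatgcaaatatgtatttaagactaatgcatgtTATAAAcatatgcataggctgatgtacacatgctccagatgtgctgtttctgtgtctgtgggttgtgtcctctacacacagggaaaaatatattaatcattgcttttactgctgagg
Col6a1, chr10:76726045-76726294, minus strand: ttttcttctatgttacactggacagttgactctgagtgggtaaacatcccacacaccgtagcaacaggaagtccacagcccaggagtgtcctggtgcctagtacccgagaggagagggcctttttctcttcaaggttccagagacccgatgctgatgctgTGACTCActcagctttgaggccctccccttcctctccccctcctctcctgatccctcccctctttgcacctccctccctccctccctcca

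These windows held 62% G and C for Col1a2, 35.2% for Col3a1 and 56% for Col6a1, and that of Col5a1, not shown, held 76.4%. CCAAT, the core of the CCAAT box, stood 109 to 105 bases before the start of Col1a2, which also held GGGCGG at 205 to 200 and at 188 to 183 bases. TATAAA stood 117 to 112 bases before the listed start of Col3a1. TGANTCA, the core of an AP-1 site, stood 90 to 84 bases before the start of Col6a1. GGGCGG was found in 4 of the 7 collagen windows, those of Col1a2 and Col5a1 and both windows of Col6a2, which overlap each other. The other motifs were found in 1 window each. Among all 32851 windows of that length, 12.4% held TATAAA, 33.8% CCAAT, 32.7% GGGCGG and 6.75% TGANTCA, at any position and on either strand. These are matches of short strings, and whether any of them acts as a promoter element was not tested. Col6a3 held none of the 4 in its window.

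At 48 h all 8 collagens rose in tamoxifen, by 1.46 to 1.71 times as a ratio of mean FPKM. With limma at an adjusted p of 0.05, 8 of 8 were called higher, where 7.88% of all tested genes were called higher and 4.47% lower. Their log2 changes had a median of 0.62, beside 0.02 over all genes. The members were chosen with results of these libraries known, so these counts describe the list and are not independent evidence of its direction. Ranked among the changes of all genes tested, they stood at percentiles 97.1 (Col5a2) to 99.2 (Col6a1).

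Among the fibrillar chains at 48 h, Col1a1, which gives the main chain of type I collagen, stood at 53.0 and 50.0 FPKM in the ethanol libraries and at 79.4 and 78.7 in the tamoxifen libraries. Its log2 change was 0.61 ± 0.05 (SE, adjusted p = 0.000181). Its partner Col1a2 stood at 29.5 and 28.6 FPKM in ethanol and 47.1 and 45.5 in tamoxifen, a rise of 0.66 ± 0.07 (SE, adjusted p = 0.000429). The groups did not overlap for either chain of type I. Col3a1, the type III chain, stood at 3.61 and 3.14 FPKM in ethanol and 5.71 and 5.84 in tamoxifen, a rise of 0.63 ± 0.10 (SE, adjusted p = 0.00307). Col5a1, the alpha 1 chain of type V, stood at 10.7 and 10.0 FPKM in ethanol and 15.5 and 14.8 in tamoxifen, a rise of 0.51 ± 0.07 (SE, adjusted p = 0.00175). Col5a2, which gives the alpha 2 chain of type V, stood at 8.99 and 8.43 FPKM in ethanol and 12.6 and 12.9 in tamoxifen. It rose by 0.50 ± 0.09 (SE, adjusted p = 0.0052), and lost its call without ethanol 48 h replicate 2 (0.46, adjusted p = 0.0535).

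All 3 type VI chains were higher in tamoxifen at 48 h as well. Col6a1 stood at 7.80 and 7.45 FPKM in ethanol and 12.9 and 12.7 in tamoxifen, a rise of 0.68 ± 0.07 (SE, adjusted p = 0.00038). Col6a2 stood at 5.52 and 4.87 FPKM in ethanol and 8.29 and 7.97 in tamoxifen, a rise of 0.56 ± 0.08 (SE, adjusted p = 0.00219). Col6a3, whose long alpha 3 chain completes the type VI trimer, stood at 4.03 and 4.04 FPKM in ethanol and 6.61 and 6.91 in tamoxifen, a rise of 0.62 ± 0.09 (SE, adjusted p = 0.00229). No tamoxifen library of these 3 genes overlapped an ethanol library. For all 8 collagens both tamoxifen libraries lay above both ethanol libraries, as they did for 32.7% of all tested genes.

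At 72 h all 8 rose again, by 1.96 to 2.42 times as a ratio of mean FPKM. Here 20.1% of all tested genes were called higher and 18.5% lower. The median log2 change of the collagens was 1.04, beside -0.01 over all genes. Col1a2 showed the highest value of the 8 and Col6a2 the lowest, and differences between members were not tested.

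Col1a1 stood at 51.8 and 54.8 FPKM in the ethanol libraries at 72 h and at 121 and 125 in the tamoxifen libraries, a rise of 1.19 ± 0.05 (SE, adjusted p = 5.76e-07). Col1a2 stood at 29.8 and 31.8 FPKM in ethanol and 70.1 and 79.1 in tamoxifen, a rise of 1.25 ± 0.07 (SE, adjusted p = 1.38e-06). Both type I chains were higher in each tamoxifen library than in either ethanol library. Col3a1 stood at 2.82 and 3.26 FPKM in ethanol and 6.75 and 7.33 in tamoxifen, a rise of 1.00 ± 0.10 (SE, adjusted p = 3.76e-05). Col5a1 stood at 11.0 and 10.3 FPKM in ethanol and 22.1 and 21.4 in tamoxifen, a rise of 0.97 ± 0.07 (SE, adjusted p = 5.9e-06). Col5a2 stood at 5.56 and 6.35 FPKM in ethanol and 13.0 and 14.7 in tamoxifen, a rise of 1.1 ± 0.09 (SE, adjusted p = 1.06e-05). The type III and V chains were all higher in both tamoxifen libraries than in either ethanol library. Col6a1 stood at 7.61 and 7.99 FPKM in ethanol and 17.3 and 18.0 in tamoxifen, a rise of 1.08 ± 0.07 (SE, adjusted p = 3.43e-06). Col6a2 stood at 5.69 and 5.72 FPKM in ethanol and 11.0 and 11.3 in tamoxifen, a rise of 0.86 ± 0.08 (SE, adjusted p = 2.99e-05). Col6a3 stood at 5.60 and 4.96 FPKM in ethanol and 9.75 and 11.1 in tamoxifen, a rise of 0.86 ± 0.09 (SE, adjusted p = 6.11e-05). The groups did not overlap for any type VI chain, and across all 8 collagens the tamoxifen libraries lay above the ethanol libraries, as for 35.2% of all tested genes.

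**Figure D2:**
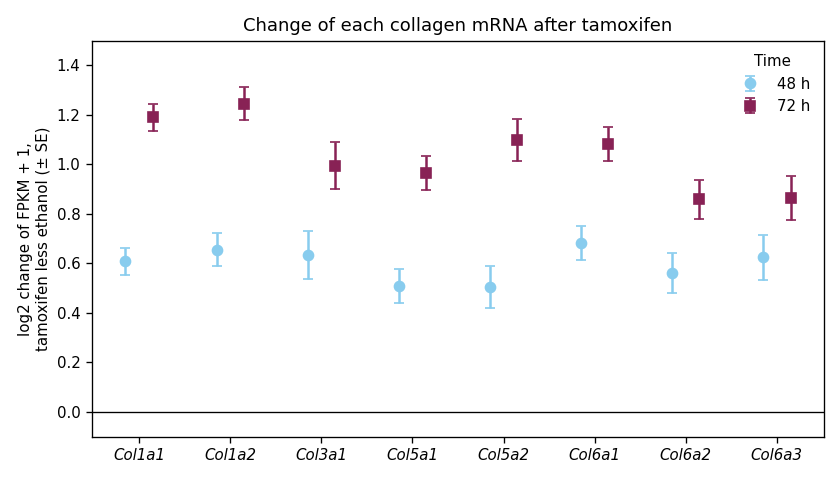
Log2 change of FPKM + 1 in tamoxifen against ethanol (vertical axis) for each collagen gene at 48 h (circles) and 72 h (squares), with bars of 1 SE from limma over 8 libraries. The values run from 0.50 to 0.68 at 48 h and from 0.86 to 1.25 at 72 h.

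The change was larger at 72 h than at 48 h for 4 of the 8 collagens by limma's test of the difference, where 2.00% of all tested genes had a higher change at the later time. They were Col1a1 (by 0.58 ± 0.08 SE, adjusted p = 0.00727), Col1a2 (by 0.59 ± 0.10 SE, adjusted p = 0.0154), Col5a2 (by 0.59 ± 0.12 SE, adjusted p = 0.0318) and Col5a1 (by 0.46 ± 0.10 SE, adjusted p = 0.0347). The type VI and III chains did not pass, with differences of 0.40 for Col6a1 (adjusted p = 0.0534), 0.36 for Col3a1 (adjusted p = 0.164), 0.30 for Col6a2 (adjusted p = 0.17) and 0.24 for Col6a3 (adjusted p = 0.314). Col6a1 passed in 3 other fits: after median-ratio scaling (0.40, adjusted p = 0.0499), with a pseudocount of 5 (0.32, adjusted p = 0.0367) and after quantile normalization (0.47, adjusted p = 0.0261), where 5 of 8 collagens passed. Whether the fibrillar and the type VI chains differ in this was not tested. The number of collagens that passed was 1 without ethanol 48 h replicate 1 or replicate 2. It was 2 without ethanol 72 h replicate 1, either tamoxifen 48 h replicate or tamoxifen 72 h replicate 2. Col1a1 passed in each of these fits.

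The ethanol cultures of 72 h and 48 h were compared to see how the collagens moved without deletion. Most stayed near their 48 h level: 1 of 8 was called higher (38.0% of all tested genes were) and 1 lower (19.2%). Col5a2 fell from 8.71 ± 0.40 to 5.96 ± 0.56 FPKM, a log2 change of -0.48 ± 0.09 SE (limma, adjusted p = 0.000837), and its libraries of 72 h lay below those of 48 h, as for 29.4% of all tested genes. For 3 of 8 collagens the 72 h libraries lay above those of 48 h, against 50.8% of all genes. The neighbour of Col5a2, Col3a1, stood at -0.12 ± 0.10 SE (adjusted p = 0.326), and was called lower after quantile normalization (-0.35, adjusted p = 0.00837). Col6a3 rose from 4.03 ± 0.00 to 5.28 ± 0.45 FPKM, a log2 change of 0.32 ± 0.09 SE (limma, adjusted p = 0.0117), a call lost after median-ratio scaling (0.21, adjusted p = 0.0686), after quantile normalization (0.11, adjusted p = 0.345) and without ethanol 72 h replicate 1 (0.24, adjusted p = 0.0887). The median gene stood 0.11 higher at 72 h, and after median-ratio scaling removed this shift Col1a1, Col1a2, Col5a1 and Col6a1, none of them called, turned from slightly positive to slightly negative values. Time and any batch of harvest or sequencing that goes with it cannot be told apart in this comparison.

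In tamoxifen, 7 of 8 collagens were higher at 72 h than at 48 h, where 37.5% of all tested genes were. For all 8 the 72 h libraries lay above those of 48 h, as for 50.1% of all genes. Col1a1 rose from 79.0 ± 0.49 to 123 ± 2.27 FPKM, a log2 change of 0.63 ± 0.05 SE (limma, adjusted p = 1.17e-05) and Col1a2 from 46.3 ± 1.09 to 74.6 ± 6.31 FPKM, a log2 change of 0.67 ± 0.07 SE (limma, adjusted p = 2.55e-05). Col6a3 rose from 6.76 ± 0.21 to 10.4 ± 0.95 FPKM, a log2 change of 0.56 ± 0.09 SE (limma, adjusted p = 0.000478). Col5a2 stood at 12.8 ± 0.19 and 13.9 ± 1.21 FPKM, a difference of 0.11 ± 0.09 SE that did not pass (adjusted p = 0.291). Col3a1 was called by a narrow margin (0.25 ± 0.10 SE, adjusted p = 0.0476), and its call was lost after median-ratio scaling (0.14, adjusted p = 0.223), after quantile normalization (0.07, adjusted p = 0.546), with every gene fitted (adjusted p = 0.0865), with a pseudocount of 0.1 (adjusted p = 0.061), with the replicate block (0.25, adjusted p = 0.0587) and without any library of the 2 groups (adjusted p 0.0675 to 0.211). Since these comparisons share libraries with those of tamoxifen against ethanol, their values stand side by side and not as separate support.

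Ratios between chains of 1 collagen type were compared across libraries. Col1a1 stood at 1.58 to 1.80 times the FPKM of Col1a2 across the 8 libraries. The ratio of Col5a1 to Col5a2 was 1.15 to 1.23 in the 4 libraries of 48 h and 1.45 to 1.98 in the 4 of 72 h, without overlap between times and with overlap between ethanol and tamoxifen at each time. The ratio of Col6a1 to Col6a3 was 1.85 to 1.96 at 48 h and 1.36 to 1.77 at 72 h, again without overlap between times. The ratio of Col6a1 to Col6a2 was 1.34 to 1.53 in the 4 ethanol libraries and 1.56 to 1.60 in the 4 tamoxifen libraries. These separations were seen after the values were known and were not tested.

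**Figure D3:**
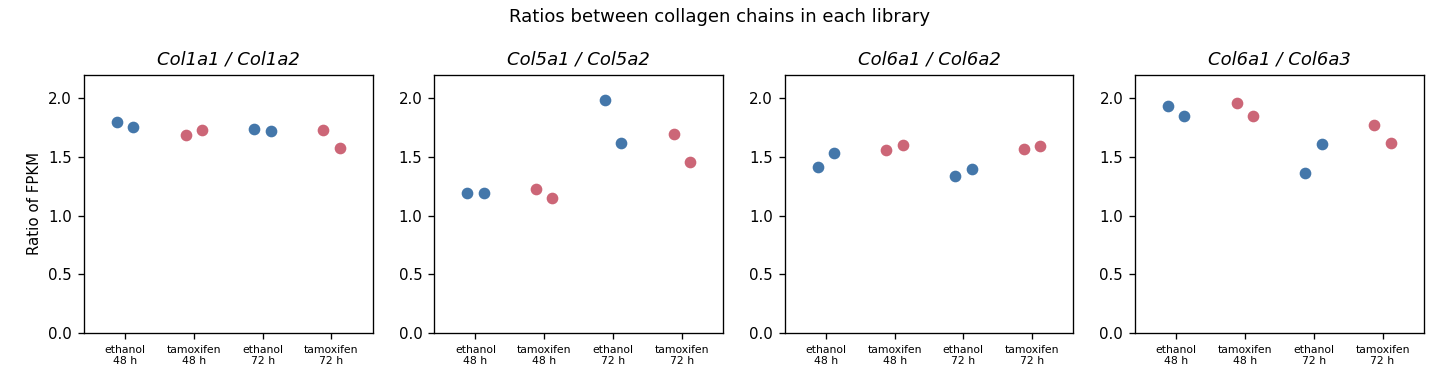
Ratio of the FPKM of paired collagen chains (vertical axes, from 0) in each library, by group. The type I ratio lies between 1.58 and 1.80 in all libraries, and the type V ratio lies at 1.15 to 1.23 at 48 h and 1.45 to 1.98 at 72 h.

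Most markers of fibroblasts that are not collagens rose with the collagens in tamoxifen against ethanol. Of 19 tested genes of that list (20 listed, 1 of them also in the primitive endoderm list), 15 rose and 0 fell at 48 h, with a median log2 change of 0.46, and 18 rose and 0 fell at 72 h, with a median of 0.91. Without ethanol 48 h replicate 2 the count at 48 h was 9. Thy1, a surface glycoprotein of fibroblasts, stood at 33.1 and 34.5 FPKM in ethanol at 72 h and at 71.9 and 77.1 in tamoxifen, a rise of 1.12 ± 0.06 (SE, adjusted p = 9e-07). Cd44, the hyaluronan receptor, stood at 12.4 ± 1.41 FPKM in ethanol and 35.2 ± 0.80 in tamoxifen at 72 h, a log2 change of 1.44 ± 0.07 SE (limma, adjusted p = 9.88e-07). Unlike the collagens, it was lower at 72 h than at 48 h in both treatments, from 30.2 FPKM in ethanol and 46.2 in tamoxifen at 48 h. The marker that did not pass at 72 h was Fbln1 (limma, 0.03, adjusted p = 0.718). The list summed to 390 to 409 FPKM in ethanol and 568 to 572 in tamoxifen at 48 h, and to 319 to 332 in ethanol and 657 to 708 in tamoxifen at 72 h, without overlap. Of all tested genes, 7.88% were called higher and 4.47% lower at 48 h, and 20.1% and 18.5% at 72 h. These shares are the background for the tamoxifen counts of every list here and below. In bulk RNA more cells of a type and more RNA per cell cannot be told apart. The part of fibroblast number in the collagen changes was not tested.

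Pluripotent cell markers fell or did not pass. Of the 15, 1 fell and 0 rose at 48 h, and 8 fell and 0 rose at 72 h, with medians of -0.01 and -0.25. The share of all tested genes called lower was 4.47% at 48 h and 18.5% at 72 h. The fall at 48 h was that of Tdgf1, a coreceptor of Nodal, and it was lost when any library other than those of tamoxifen at 72 h was left out. Klf2, a naive pluripotency factor, fell from 71.3 ± 1.2 to 48.1 ± 0.03 FPKM at 72 h, a log2 change of -0.56 ± 0.06 SE (limma, adjusted p = 7.22e-05). Their summed level was 4564 to 4710 FPKM in ethanol and 3646 to 4104 in tamoxifen at 72 h. This sum is weighted to the most abundant gene, Dppa5a, at 2571 and 2461 FPKM in ethanol and 1734 and 2142 in tamoxifen. Pou5f1 (means of 489 and 524 FPKM) and Utf1 (391 and 421 FPKM) did not pass.

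The collagens were then measured relative to the fibroblast markers, by centring every library on the mean log2 value of the 19 markers before the same limma fit. The markers themselves rose by a mean of 0.48 at 48 h and 0.93 at 72 h, so centring lowered the change of every gene by these amounts. The median over all genes became -0.46 and -0.94. With most genes then called, adjustment changed the p-values little. The shares of all genes below carry this shift and are not a background for the collagens. At 48 h, 2 of 8 stood higher than the markers, Col6a1 (0.20 ± 0.09 SE, adjusted p = 0.0429) and Col1a2 (0.18 ± 0.07 SE, adjusted p = 0.0358), where 0.489% of all tested genes did and 85.2% stood lower. At 72 h they were Col1a2 (0.31 ± 0.07 SE, adjusted p = 0.000586) and Col1a1 (0.26 ± 0.07 SE, adjusted p = 0.00209), where 0.691% of all genes stood higher and 95.4% lower. The other 6 ran from 0.02 to 0.15 at 48 h and from -0.07 to 0.17 at 72 h and did not pass. With a pseudocount of 0.1, which compresses low genes less, 0 passed at 48 h and Col1a2 alone at 72 h. The count at 48 h was also 0 without ethanol 48 h replicate 1 or 2, ethanol 72 h replicate 1 or 2 or tamoxifen 48 h replicate 1, and 1 without tamoxifen 48 h replicate 2. The difference between 72 h and 48 h passed for 0 of 8 on this scale (0.362% of all genes higher, 71.8% lower), with 0 of 8 at every library left out and 2 of 8 with a pseudocount of 5.

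Between the ethanol groups the medians of the fibroblast markers and the collagens differed, and this difference was not tested. From 48 h to 72 h, 10 of the 19 markers fell and 3 rose, with a median of -0.26. Of all tested genes 19.2% were called lower and 38.0% higher. The collagens had a median of 0.04, beside 0.11 over all genes. Relative to the markers 6 collagens stood higher at 72 h and Col5a2 lower (-0.26, adjusted p = 0.0216), where 60.6% of all genes stood higher and 6.91% lower. Col6a3 had the highest of these values (0.54, adjusted p = 0.000165). The count of 7 was 3 without ethanol 48 h replicate 2 and 4 without ethanol 72 h replicate 1. In tamoxifen, 4 of 8 stood higher than the markers at 72 h, where 17.0% of all genes did and 36.4% stood lower. The median over all genes on this scale was 0.34 between the ethanol groups and -0.11 between the tamoxifen groups. These shares therefore carry the markers' own shift.

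**Figure D4:**
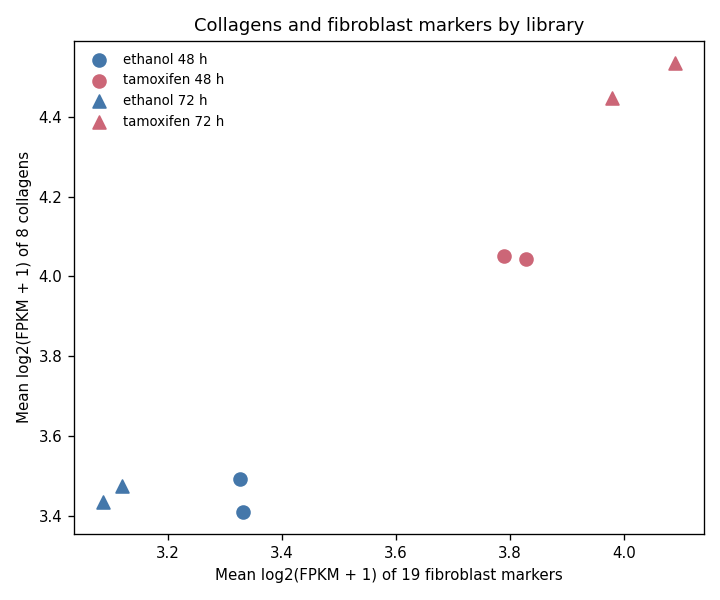
Mean log2(FPKM + 1) of the 8 collagens (vertical axis) against that of 19 fibroblast markers without collagens (horizontal axis), with a point for each library. The tamoxifen libraries lie above and to the right of the ethanol libraries, and the ethanol libraries of 72 h lie to the left of those of 48 h.

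Macrophage markers, of which 5 of 8 were tested, had 3 higher and 0 lower at 48 h and 5 higher and 0 lower at 72 h. Without ethanol 48 h replicate 1 or tamoxifen 48 h replicate 1 the count at 48 h was 0, and without ethanol 48 h replicate 2 it was 1. At 72 h it was 3 without ethanol 72 h replicate 2 or tamoxifen 72 h replicate 2. Their summed level was 14.6 to 15.8 FPKM in ethanol and 34.9 to 41.7 in tamoxifen at 72 h, led by the lysozyme gene Lyz2, which rose by 1.31 ± 0.12 (SE, adjusted p = 2.35e-05). Primitive endoderm markers, 7 of 10 tested, had 5 higher and 1 lower at 72 h, led in level by the basement membrane collagen Col4a1 (15.3 ± 0.03 to 30.8 ± 0.31 FPKM), which fibroblasts also make. Pdgfra, which is in the fibroblast list too, was among the rises. The fall was that of Lama1 (limma, -0.47, adjusted p = 0.00577), and Gata4 did not pass (0.32, adjusted p = 0.0777). Endothelial markers, 5 of 8 tested, had 1 higher at 48 h (0 without ethanol 48 h replicate 1 or 2 or tamoxifen 48 h replicate 1) and 1 higher and 1 lower at 72 h. The higher count was 2 without tamoxifen 72 h replicate 1, and the lower count 2 without ethanol 72 h replicate 2 or tamoxifen 72 h replicate 2. The most abundant, Pecam1, which stem cells also express, did not pass (-0.12, adjusted p = 0.218). Of 3 tested markers of cartilage and bone (9 listed), 2 rose at 72 h, and 0 did without ethanol 72 h replicate 1 or tamoxifen 72 h replicate 1 and 1 without tamoxifen 72 h replicate 2. The one with the highest mean over all 8 libraries, Acan, stood at 1.41 ± 0.05 FPKM in ethanol and 1.57 ± 0.13 in tamoxifen at 72 h and did not pass. Matn1, a cartilage matrix protein and 1 of the 2 that rose, stood at 1.03 ± 0.19 and 1.77 ± 0.00 FPKM, and the bone gene Ibsp was listed at 0 in all libraries. Beside these lists, 7.88% of all tested genes were called higher at 48 h, and 20.1% higher and 18.5% lower at 72 h. The endothelial counts at 72 h stand near these shares. The part of any of these cells in the collagen values was not tested.

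Of 9 other fibrillar and type VI chains 3 passed the filter on low values, and 0 of these were called in tamoxifen against ethanol at 48 h or 72 h by limma (1 of the 3, Col5a3 at 48 h, had an unadjusted p under 0.05, and 0 did at 72 h). With 20.1% of all genes called higher and 18.5% lower at 72 h, 3 genes are too few to set apart from that background. The other 6 stayed under 1 FPKM in every library and were not tested. Among them Col11a2, a chain of cartilage fibrils, stood at 0.20 and 0.21 FPKM in ethanol and 0.61 and 0.56 in tamoxifen at 72 h, without overlap. It rested on 14 to 76 implied fragments in a library. Col6a4 and Col6a6 overlapped, while Col24a1, Col27a1 and Col6a5 were also higher in tamoxifen at 72 h without overlap. They rested on 11 to 55 implied fragments for Col24a1, 52 to 131 for Col27a1 and 57 to 156 for Col6a5. Of all tested genes 35.2% were higher without overlap, but these 6 chains are not among the tested genes. No share was taken over genes under the filter. Col5a3, another chain of type V, stood at 3.39 and 3.53 FPKM in ethanol and 3.52 and 3.84 in tamoxifen at 72 h (0.07 ± 0.09 SE, adjusted p = 0.593). Col11a1, a chain of cartilage fibrils, stood at 1.05 and 1.13 FPKM in ethanol and 1.15 and 1.42 in tamoxifen (0.13 ± 0.13 SE, adjusted p = 0.449). Between the ethanol groups all 3 were called higher at 72 h than at 48 h, as were 38.0% of all tested genes. Col2a1, the type II chain of cartilage, went from 0.68 to 2.45 FPKM (limma, 1.04, adjusted p = 3.5e-05). Time and batch cannot be told apart in that comparison.

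Enzymes and chaperones that modify and fold procollagen rose in part. Of 16 tested genes 4 rose and 0 fell at 48 h, and 10 rose and 1 fell at 72 h, with medians of 0.11 and 0.25. Over all tested genes 7.88% were called higher and 4.47% lower at 48 h, and 20.1% and 18.5% at 72 h. Serpinh1, the collagen chaperone HSP47, stood at 80.3 and 84.0 FPKM in ethanol and 112 and 118 in tamoxifen at 72 h, a rise of 0.48 ± 0.05 (SE, adjusted p = 8.85e-05). Fkbp10, a prolyl isomerase of the endoplasmic reticulum, rose from 14.2 ± 1.63 to 24.4 ± 0.50 FPKM, a log2 change of 0.75 ± 0.08 SE (limma, adjusted p = 5.65e-05). The fall was that of the lysyl hydroxylase Plod1 (-0.39, adjusted p = 0.00965), and the count of falls was 0 without ethanol 72 h replicate 1 or tamoxifen 72 h replicate 1. The 48 h count of rises was 1 without ethanol 48 h replicate 1, ethanol 48 h replicate 2 or tamoxifen 48 h replicate 1.

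Genes that trim and crosslink collagen outside the cell had 6 of 11 higher and 0 lower at 48 h and 9 higher and 0 lower at 72 h, with medians of 0.30 and 0.73. As above, 7.88% and 20.1% of all tested genes were called higher at these times. Lox, the lysyl oxidase that crosslinks collagen, stood at 14.5 and 16.0 FPKM in ethanol and 34.7 and 39.8 in tamoxifen at 72 h, a rise of 1.23 ± 0.08 (SE, adjusted p = 4.76e-06). Its relative Loxl1 rose from 7.72 ± 0.38 to 18.9 ± 0.62 FPKM, a log2 change of 1.19 ± 0.08 SE (limma, adjusted p = 3.41e-06). The 48 h count was 3 without ethanol 48 h replicate 1 or tamoxifen 48 h replicate 1.

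Matrix proteins that lie on or beside collagen fibrils had 10 of 11 higher and 0 lower at each time, with medians of 0.62 and 1.06. Across all tested genes 7.88% were called higher at 48 h and 20.1% at 72 h. Tnc, the matrix glycoprotein tenascin C, stood at 71.3 and 70.0 FPKM in ethanol and 191 and 191 in tamoxifen at 72 h, a rise of 1.42 ± 0.06 (SE, adjusted p = 2.48e-07). Thbs1, or thrombospondin, rose from 132 ± 3.81 to 275 ± 10.4 FPKM, a log2 change of 1.05 ± 0.05 SE (limma, adjusted p = 9e-07). The exception was Fn1, or fibronectin, at 0.20 at 48 h and 0.16 at 72 h (adjusted p = 0.0534 and 0.0599).

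Receptors that bind or take up collagen had 3 of 8 higher at 48 h and 7 of 8 at 72 h, with 0 lower and medians of 0.28 and 0.59. Mrc2, an endocytic collagen receptor, rose from 5.51 ± 0.20 to 10.8 ± 0.12 FPKM at 72 h, a log2 change of 0.86 ± 0.08 SE (limma, adjusted p = 4.43e-05), and Antxr1, a collagen-binding surface protein, rose by 1.01 ± 0.09 (SE, adjusted p = 2.65e-05). The 48 h count was 1 without ethanol 48 h replicate 1, 0 without ethanol 48 h replicate 2 and 1 without tamoxifen 48 h replicate 2. Proteases that break collagen down and their inhibitors had 7 of 8 higher at 48 h (4 without ethanol 48 h replicate 2) and 8 of 8 at 72 h, with medians of 0.53 and 0.82. The inhibitors Timp2 and Timp3 rose by 1.41 ± 0.06 (SE, adjusted p = 5.76e-07) and 1.06 ± 0.07 (SE, adjusted p = 5.83e-06) at 72 h. Both lists stand beside 7.88% of all tested genes called higher at 48 h and 20.1% at 72 h.

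Genes of signalling by transforming growth factor beta, a known inducer of collagen genes in fibroblasts, had 7 of 13 higher and 0 lower at 48 h and 9 higher and 0 lower at 72 h, with medians of 0.41 and 0.53. Again 7.88% of all tested genes were called higher at 48 h and 20.1% at 72 h. Ltbp2, a latent TGF-beta binding protein, rose from 7.30 ± 0.20 to 18.0 ± 0.49 FPKM at 72 h, a log2 change of 1.19 ± 0.08 SE (limma, adjusted p = 3.43e-06). The ligand Tgfb1 stood at 0.42 (adjusted p = 0.00745) and 0.34 (adjusted p = 0.00619). Of the mediators, Smad3 was called higher at 48 h (0.40, adjusted p = 0.0103) and at 72 h (0.40, adjusted p = 0.00311). Smad2, Smad4, Smad7 and the receptor gene Tgfbr1 did not pass at either time. The 48 h count was 2 without ethanol 48 h replicate 2 and 4 without tamoxifen 48 h replicate 1. In each of these lists the fibroblast markers rose in the same libraries, by the values given above, and their part was not tested.

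**Figure D5:**
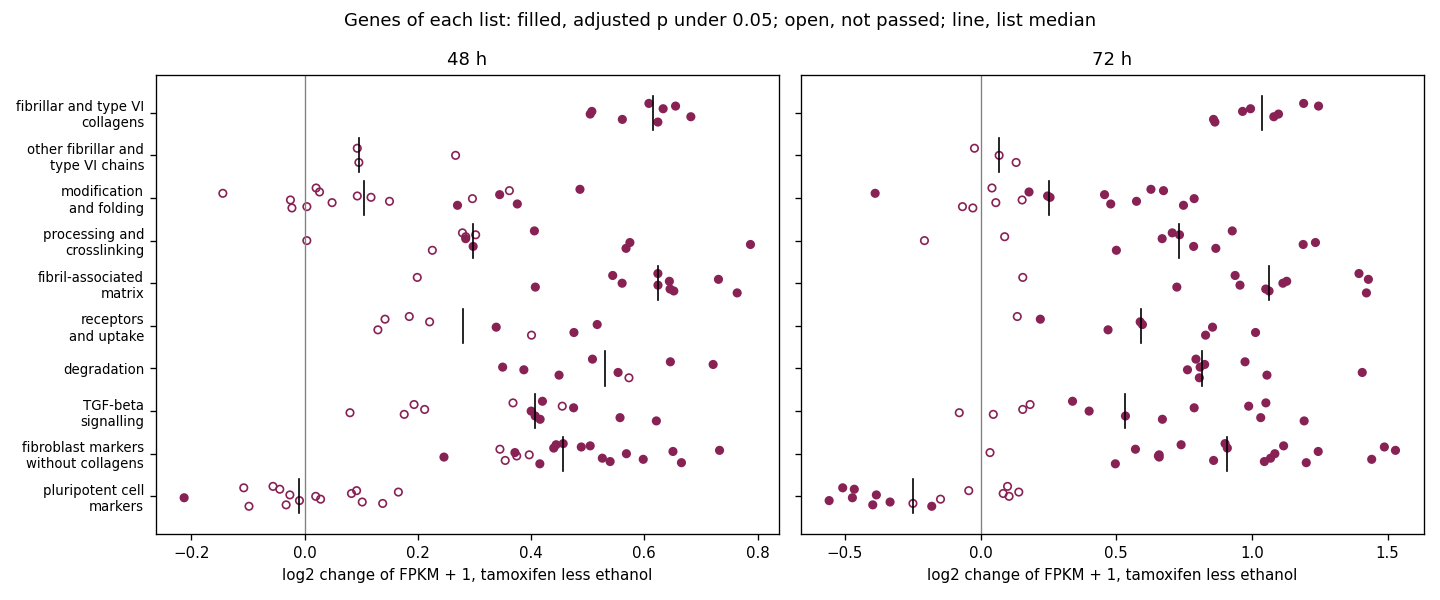
Log2 change of FPKM + 1 in tamoxifen against ethanol (horizontal axes) for each tested gene of 10 lists at 48 h (left) and 72 h (right). Filled points passed limma at an adjusted p of 0.05, open points did not, and the black line is the list's median, which for the collagens is 0.62 and 1.04.

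Over the 8 libraries the collagens varied alike. Pairwise Pearson correlations of log2(FPKM + 1) ran from 0.711 (Col5a2 and Col6a3) to 0.998 over the 28 pairs, with a median of 0.962. They describe these libraries, which share treatment and time, and carry no p-value. The genes outside the list whose profile was most like the mean of the 8 collagens, by Pearson correlation over 8 libraries, were Fosl2 (0.997), Cald1 (0.996), Plk2 (0.996), Fam198b (0.996) and Ccnd2 (0.995). Fosl2, a subunit of the AP-1 transcription factor, stood at 3.39 and 3.43 FPKM in ethanol and 7.20 and 7.05 in tamoxifen at 72 h. Cald1 encodes the actin-binding protein caldesmon, and rose from 41.6 ± 2.49 to 82.4 ± 3.54 FPKM at 72 h. Plk2, a polo-like kinase and target of p53, rose by 1.01 at 48 h and by 1.58 at 72 h, above the change of any collagen at either time.

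The authors' deposited tables, made from counts of the same libraries divided by size factors, list all 8 collagens as higher in tamoxifen. In the authors' deposited table for 48 h the log2 ratio of tamoxifen over ethanol ran from 0.47 (Col5a1) to 0.73 (Col3a1), with adjusted p-values up to 4.59e-07 (Col6a2). In the authors' deposited table for 72 h it ran from 0.97 (Col6a2) to 1.26 (Col1a2), with adjusted p-values up to 2.5e-22 (Col6a2). Of all genes in these tables, 15.7% of 16729 at 48 h and 37.2% of 17011 at 72 h passed, in either direction. The cut-off behind these shares was on the authors' adjusted p-values and was looser than the 0.05 used here. For Col3a1, the lowest of the 8 by FPKM, the authors' deposited table gives mean scaled counts of 275 in ethanol and 457 in tamoxifen at 48 h, and 289 and 645 at 72 h.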

How the data were processed

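The authors deposited 1 gene table for each of the 8 libraries, giving FPKM, its lower and upper bounds and a status. The submitters' processing notes name mm9 and, in no stated order, Cufflinks 1.3.0, TopHat 1.4.1, DESeq, BWA 0.6.1 and HTSeq. The authors also deposited 2 tables of comparisons, which per the file headers hold a signal (mean counts after size-factor scaling), fold ratios of ethanol over tamoxifen, their log2 (the sign was turned here), and p-values and adjusted p-values. Here 209 of 20789 entries without an OK status in every library were left out, 1 entry was kept per identifier (highest mean FPKM, 20388), and genes of at least 1 FPKM in at least 2 libraries were tested (11867, all 8 collagens among them). Starts count from 0 in the files, so 1 was added. Implied fragments take the gap between FPKM and bound as 2 SD of a Poisson count, and cover counting error only.

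One fit of limma 3.58.1 (R 4.3.3) to log2(FPKM + 1) of the 8 libraries, with a mean for each of 4 groups, 4 residual degrees of freedom and a mean trend, gave two-sided tests with Benjamini-Hochberg adjustment over all genes in each of 5 contrasts, called at 0.05. It was tested on simulated data. The alternatives were pseudocounts of 0.1 and 5, no filter, median-ratio scaling, quantile normalization, no trend, the compared groups alone, a replicate block, and each library left out. The lone library of a group is then assumed to vary like the others. The fit centred on fibroblast markers and the alternatives of list counts were added after seeing the data. The members and the 13 lists were chosen with earlier results of these data known. Named genes are the 8 members, the targeted gene, the 2 genes of smallest p at 72 h in each list, the most abundant tested gene of each list of other cell types, and the 5 most alike profiles. One gene that this rule names is not reported here. Plod1, Fn1, Tgfb1, Smad2, Smad3, Smad4, Col2a1, Col11a2, Col24a1, Col27a1, Col6a4, Col6a5, Col6a6, Matn1, Ibsp and those in the closing section were named after their values were seen. So were Fbln1, Pdgfra, Lama1, Gata4, Smad7, Tgfbr1, Dppa5a, Pou5f1 and Utf1. Mia3 of the folding list is not analysed here. Promoter sequences are RefSeq's on GRCm38.p6.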

Additional observations from a re-analysis of the deposited data

Results flagged for a closer look

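The tamoxifen change of 4 collagens differed between the 2 times by limma's test of the difference itself. The change at 72 h exceeded that at 48 h by 0.58 on the log2 scale for Col1a1, by 0.59 for Col1a2, by 0.46 for Col5a1 and by 0.59 for Col5a2. The call of Col5a1 was lost with any library left out, where its difference was 0.41 to 0.50. With every gene fitted, Col1a2, Col5a1 and Col5a2 lost their calls (limma, adjusted p = 0.058, 0.0724 and 0.0821). For Col5a2 the ethanol level was also lower at 72 h, by 0.48 on that scale, while its tamoxifen level stood at 12.8 and 13.9 FPKM at 48 h and 72 h. After centring on the fibroblast markers, whose own mean rose by 0.48 at 48 h and by 0.93 at 72 h, 0 of the 8 collagens passed this test. The part of the markers in the difference was not tested.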

How the results depend on the processing

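The 8 rises at 72 h kept their call in all 16 other fits, and those at 48 h in all but the fit of Col5a2 without ethanol 48 h replicate 2. With each library left out in turn, the number of collagens called was 7 to 8 at 48 h and 8 to 8 at 72 h. For the difference of these changes it was 1 to 3, for ethanol 72 h against 48 h it was 1 to 2, and for tamoxifen 72 h against 48 h it was 6 to 7. For the difference, 4 collagens became 1 with every gene fitted and 2 with no trend, and 5, with Col6a1 added, after median-ratio scaling (adjusted p = 0.0499), after quantile normalization (adjusted p = 0.0261) and with a pseudocount of 5 (adjusted p = 0.0367). For the ethanol groups 1 was called after median-ratio scaling, against 2.

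All genes called numbered 440 to 1583 at 48 h with libraries left out (958 without the filter, against 1466) and 3260 to 4505 at 72 h (against 4572). For the difference they numbered 50 to 243 (44 without the filter, 226 without the trend and 266 with the replicate block, against 409). They numbered 5229 to 6861 between ethanol groups and 5459 to 6672 between tamoxifen groups. After median-ratio scaling the share of rises among calls went from 63.8% to 51.6% at 48 h, from 66.4% to 49.8% between ethanol groups and from 65.6% to 50% between tamoxifen groups.

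Relative to the fibroblast markers, the number of collagens called was 0 to 2 at 48 h with libraries left out, 2 to 2 at 72 h, 0 to 0 for the difference, 3 to 7 between ethanol groups and 3 to 4 between tamoxifen groups. With a pseudocount of 0.1 it was 0 at 48 h and 1 at 72 h, without the trend it was 1 at 48 h, and with a pseudocount of 5 it was 2 for the difference.

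Directions turned for uncalled values near 0. Between ethanol groups median-ratio scaling gave -0.0795 for Col1a1, -0.0423 for Col1a2, -0.0835 for Col5a1 and -0.0861 for Col6a1, and quantile normalization gave -0.1118 for Col5a1, -0.1542 for Col6a1 and -0.0803 for Col6a2. The quantile fit also called Col3a1 lower (-0.3539, adjusted p = 0.00837, against -0.12 uncalled). With each library left out in turn Col5a1 ran from -0.01 to 0.0808 and Col6a1 from -0.0018 to 0.0603. Between tamoxifen groups Col5a2 stood at -0.0014 and -0.0103 under those scalings. The causes were not tested.

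The labels do not say that a replicate number marks a shared culture. Deviations of same-numbered libraries correlated at 0.0024 for ethanol and tamoxifen of 48 h, -0.0615 for those of 72 h, 0.145 for the ethanol groups and -0.276 for the tamoxifen groups. With the replicate block 8, 8, 4, 2 and 6 collagens were called at 48 h, at 72 h, for the difference, between ethanol groups and between tamoxifen groups. Col3a1 between tamoxifen groups was the only collagen call it changed. With the numbers of tamoxifen 72 h crossed, 7 collagens were called between the tamoxifen groups.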

Other observations

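Between the ethanol groups, several genes that break collagen down or inhibit its breakdown fell. Of 8 tested, 5 fell, 1 rose and 2 did not pass from 48 h to 72 h, with a median of -0.40. Over all tested genes the median was 0.11 (-0.002 after median-ratio scaling), with 38.0% called higher and 19.2% lower. Timp1, an inhibitor of matrix proteases, stood at 66.1 FPKM at 48 h and 35.4 at 72 h (-0.88, adjusted p = 1.22e-05), and the interstitial collagenase Mmp13 at 2.51 and 0.64 FPKM (-1.09, adjusted p = 2.25e-05). The gelatinase Mmp2 rose from 5.99 to 12.3 FPKM (0.93, adjusted p = 1.11e-05). The count of falls was 5 with any library left out and 6 after median-ratio scaling. In the same comparison 10 of 19 fibroblast markers fell and 3 rose (median -0.26), and 3 of 5 macrophage markers fell and 0 rose (median -0.41, with 1 fall without ethanol 72 h replicate 2). Their part in the falls was not tested. Time and batch cannot be told apart here.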
